A study of Mus musculus with 37 samples.

Results

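The comparison described here was between E11.5 XX primordial germ cells (PGCs), from which oocytes later arise, with and without a conditional knockout of Dnmt1. It comprised 6 knockout libraries, called DCKO in the labels, and 4 control libraries. These 10 were all the female columns of the E11.5 table, out of 25 libraries with values and 37 described in the series. Of 24318 genes in the table, 12225 averaged 1 RPKM or more in these 10 libraries. RPKM divides the reads of a gene by the length of its transcript and by the size of the library. Short RNA genes, 388 by their symbols, were set apart because RPKM rests there on a very short length. The choice by symbol also took in the longer genes Trnau1ap, Mir17hg and Mir143hg. This left 11837 genes to test.

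Per the labels, dams given as homozygous, with an Oct4-IRES-Gfp reporter and a floxed Dnmt1 allele (Dnmt1 2lox), were mated with sires carrying Blimp1-Cre. The Cre is driven by the control elements of Blimp1, which is expressed in early PGCs. The DCKO genotype is given as Dnmt1 -/- and that of controls as wild type. The labels name no further alleles of either group, so whether controls carried the floxed allele or the Cre was not known here. PGCs of both groups were sorted by green fluorescence, and their RNA was amplified before library preparation. Whether a library came from 1 embryo or from several is not given, so the p-values below reflect only how these samples vary, a spread that could be technical.

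DNMT1 is the methyltransferase that restores CpG methylation on the daughter strand after replication, and UHRF1 recruits it to the hemimethylated sites. PGCs lose most of their DNA methylation while they migrate to and settle in the gonad, and a set of germline genes with methylated CpG-rich promoters is activated in that period. XX germ cells also reactivate their silent X chromosome and later enter meiosis in the fetal ovary, after the stage studied here.

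The libraries had the features of XX germ cells. The mean log2(RPKM + 1) over 12 germ cell markers (among them Pou5f1, Dppa3, Ddx4, Kit and Tfap2c) was 6.39 ± 0.18 in controls (SD, n = 4) and 6.36 ± 0.46 in DCKO (SD, n = 6). Dazl is also among the 12, and it lay higher in DCKO (log2 fold change 1.91). It raises the DCKO mean, so the nearness of these means rests in part on Dazl. The Y-linked genes Ddx3y, Eif2s3y, Kdm5d and Uty were at or below 0.275 RPKM in each of the 10 libraries. Of 92 markers of other cell types found in the table, 4 (Amh, Cyp11a1, Gata1 and C1qa) were listed at 0 in all 10. Their summed RPKM was 448 to 747 in controls and 421 to 2880 in DCKO, with DCKO 4 the highest and the next DCKO library at 2240. DCKO 4 also had the lowest germ cell marker mean, 5.48 against 6.14 to 6.72 in the other 9 libraries. DCKO libraries differed more among themselves than controls did: the median gene had an SD of 0.81 in DCKO and 0.48 in controls on the log2(RPKM + 1) scale. DCKO 4, 6 and 2 stood farthest from the rest, with median correlations to the other libraries of 0.775, 0.775 and 0.802, against 0.841 to 0.886 for the other 7. At or above 1 RPKM were 9804 to 11903 genes in each DCKO library and 10424 to 11406 in each control (exact permutation p = 0.61, two-sided).

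**Figure D1:**
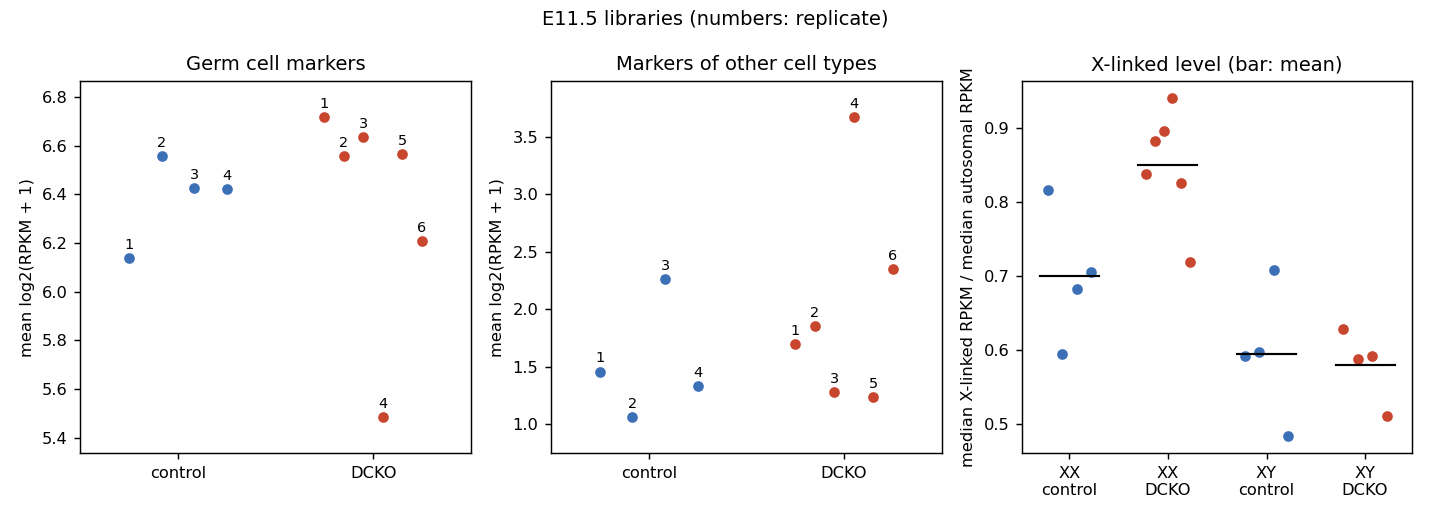
Left and centre, mean log2(RPKM + 1) of germ cell markers and of markers of other cell types in each E11.5 XX library, numbered by replicate; DCKO 4 is the lowest point on the left (5.48) and the highest in the centre (3.67). Right, the median RPKM of X-linked genes divided by that of autosomal genes in each XX and XY library, with group means as bars: XX DCKO libraries reach from 0.719 to 0.94, XX controls from 0.595 to 0.816.

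Dnmt1, the targeted gene, was lower in all 6 DCKO libraries than in all 4 controls. The controls had 85.4, 175, 72.9 and 152 RPKM, and DCKO libraries ran from 17.95 to 58.4 RPKM with a median of 22.1. The groups therefore did not overlap, although DCKO 2, with 58.4 RPKM, lay well above the other 5, of which the highest had 28.7 RPKM. The log2 fold change was -2.10 (SE 0.36) on the log2(RPKM + 1) scale. At E10.5, in a separate table, the 2 XX controls had 82.8 and 74.1 RPKM and the 2 DCKO libraries 29.6 and 20.02 RPKM. The exact permutation p for this gene was 0.00476, the smallest that the 210 splits of 6 and 4 libraries allow, and its adjusted p over all genes tested by limma was 0.139. The table gives 1 value per gene, so RNA from the deleted allele was not separated from intact RNA.

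Over all genes, limma with Benjamini-Hochberg adjustment called 1 gene, Npm1, which is 0.00845% of those tested. Without adjustment, 191 genes had p under 0.05 and lay higher in DCKO (1.61%), and 380 lay lower (3.21%). The median log2 fold change of all 11837 genes was -0.02, and 48.3% lay above 0. A description that uses no variance estimate is whether the groups overlap: 48 genes (0.406%) had all 6 DCKO values above all 4 controls, and 102 genes (0.862%) had all 6 below. Such genes are called separated here. The genes named next are among the 12 separated genes in each direction with the smallest limma p and a mean of at least 5 RPKM.

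**Figure D2:**
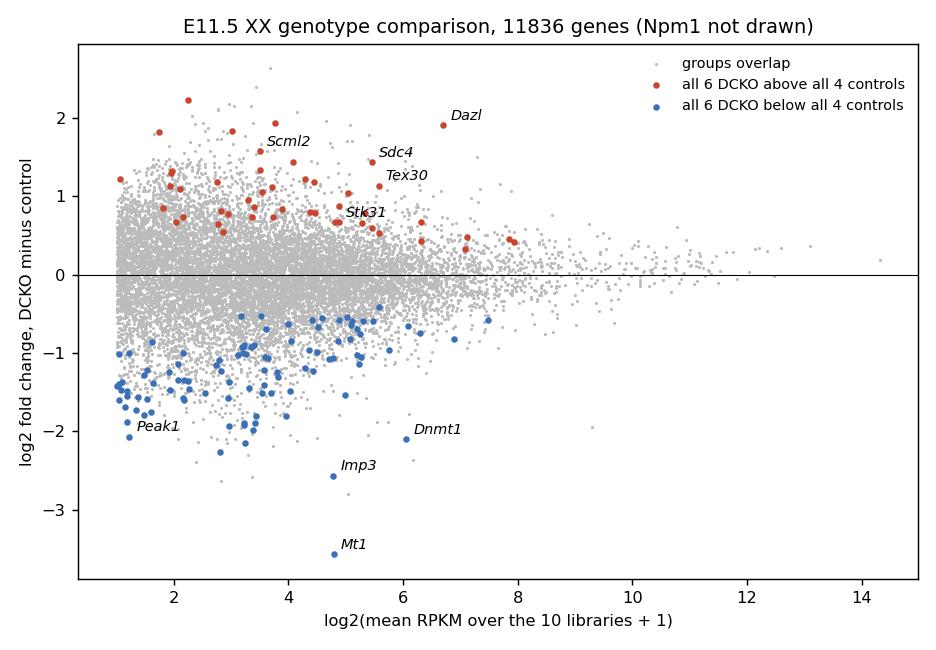
Log2 fold change (DCKO minus control) against the log2 mean RPKM over the 10 XX libraries, 1 point per gene, with separated genes in colour (48 higher, 102 lower). Npm1 is left out because it is listed at 0 in DCKO; Dazl stands at 1.91, Dnmt1 at -2.10, Imp3 at -2.57 and Mt1 at -3.57.

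Npm1 encodes nucleophosmin, an abundant nucleolar protein of ribosome assembly. It was listed at 0 in all 6 DCKO libraries, against 6115, 3881, 3410 and 4500 RPKM in the controls. It was also listed at 0 in the 4 XY DCKO libraries of the same table, where XY controls had 2106 to 5521 RPKM. In the E10.5 table its values were 5390 and 3874 RPKM in the 2 XX DCKO libraries and 3921 and 3953 RPKM in the 2 controls. An exact 0 can be a failed estimate, and Npm1 has near-identical processed copies in the genome that can share its reads, so no fold is given. Of the 18 nucleolar protein genes tested, Npm1 included, 3 lay above 0 in log2 fold change, and the median was -0.30. No other gene of the 18 was listed at 0 in any of the 10 libraries. Fbl, the rRNA methyltransferase fibrillarin, stood at -0.46 (SE 0.27), and Gar1, a subunit of pseudouridylation particles, at -0.50 (SE 0.27). Neither passed the test (adjusted p = 0.96 for both by limma), and in XY cells their log2 fold changes were -0.01 and -0.02.

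Dazl had the clearest difference among the genes that lay higher in DCKO. It encodes an RNA-binding protein that PGCs need to become sexually differentiated germ cells, and its promoter is a classic target of methylation-dependent silencing. Controls had 48.7, 17.5, 57.2 and 40.3 RPKM, and DCKO libraries had from 115 to 182 RPKM with a median of 143. The lowest DCKO library, DCKO 4, was above the highest control by more than the range of the controls. The log2 fold change was 1.91 (SE 0.29; adjusted p = 0.0738 by limma). In XY cells, where Dazl was measured in other libraries of the same table, controls had 81.8, 44.5, 4.50 and 12.1 RPKM and DCKO libraries 90.7, 87.6, 89.6 and 194 RPKM (log2 fold change 2.26, SE 0.59, limma unadjusted p = 0.00103). At E10.5 the 2 XX controls had 4.24 and 12.1 RPKM and the 2 DCKO libraries 36.4 and 74.5 RPKM. Dazl was the 1 gene of the 48 whose groups were also separated upward in both of those sets of libraries.

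Promoters of 4 separated higher genes are shown because DNMT1 acts on CpG dinucleotides, in which the promoters differ. The E-box CACGTG was searched in them as well, a motif that the MGA-MAX pair of the PRC1.6 complex can bind. Each is the 250 bases before the RefSeq start on GRCm38.p6, 5′ to 3′ on the gene's strand, with every CG in capitals. They lie at chr17:50293621-50293870 (minus strand, Dazl), chr3:82876484-82876733 (minus, Rbm46), chr6:49395289-49395538 (plus, Stk31) and chrX:161162500-161162749 (plus, Scml2).
Dazl: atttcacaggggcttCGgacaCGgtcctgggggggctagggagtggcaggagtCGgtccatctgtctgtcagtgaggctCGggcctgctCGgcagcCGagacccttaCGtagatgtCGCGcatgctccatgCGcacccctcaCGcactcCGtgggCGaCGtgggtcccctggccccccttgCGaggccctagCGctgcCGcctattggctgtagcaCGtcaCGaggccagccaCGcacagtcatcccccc
Rbm46: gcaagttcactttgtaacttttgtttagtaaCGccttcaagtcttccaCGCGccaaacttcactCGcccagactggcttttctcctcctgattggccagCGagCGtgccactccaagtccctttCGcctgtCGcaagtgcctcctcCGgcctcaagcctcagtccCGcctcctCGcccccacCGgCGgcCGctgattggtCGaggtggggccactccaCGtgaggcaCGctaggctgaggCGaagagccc
Stk31: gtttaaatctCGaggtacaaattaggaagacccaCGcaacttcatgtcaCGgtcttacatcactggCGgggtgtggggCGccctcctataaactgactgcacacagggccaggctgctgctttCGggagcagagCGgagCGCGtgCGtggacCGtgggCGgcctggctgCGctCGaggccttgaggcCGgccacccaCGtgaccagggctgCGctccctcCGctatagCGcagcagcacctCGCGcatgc
Scml2: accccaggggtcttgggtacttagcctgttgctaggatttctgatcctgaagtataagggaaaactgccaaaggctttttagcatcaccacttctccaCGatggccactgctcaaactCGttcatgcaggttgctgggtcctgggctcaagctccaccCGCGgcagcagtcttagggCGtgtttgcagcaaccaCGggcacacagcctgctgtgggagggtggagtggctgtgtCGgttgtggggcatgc
The Dazl window holds 20 CG and no CACGTG, Rbm46 18 CG and 1 CACGTG, Stk31 21 CG and 1 CACGTG, and Scml2 7 CG and none. A match was taken anywhere in the window; CACGTG reads the same on both strands. Over the 9472 tested genes with a RefSeq promoter (80.0%), the median was 16 CG, and 8.72% held CACGTG. The 42 separated higher genes with a promoter had a median of 19.5 CG and 7.14% held CACGTG. The 82 separated lower genes had a median of 17.5 CG, and 13.4% held it. Among 27 of the 31 tested methylation-repressed germline genes, 12 (44.4%) held CACGTG, and their median of 15 CG was near that of all genes. For GCGGGA, read on both strands as well, the same 27 genes gave 12 (44.4%), against 30.9% of all. It was found in 19.05% of the separated higher genes, 34.1% of the separated lower genes and 23.1% of 13 piRNA genes. Of those 13 piRNA genes, 5 (38.5%) held CACGTG. These are counts of letters in a window. No binding or methylation was measured in these files.

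Of the 48 separated higher genes, Dazl, Stk31 and Smc1b are in the list of methylation-repressed germline genes, and Rbm46 and Scml2 are in no list used here. Rbm46, an RNA-binding protein of germ cells, had 3.84, 10.1, 5.64 and 11.2 RPKM in controls and 17.3 to 28.3 RPKM (median 20.7) in DCKO, a log2 fold change of 1.44 with an SE of 0.35. Scml2, an X-linked Polycomb protein of the germline, had 1.63, 2.45, 6.90 and 7.02 RPKM in controls and 8.97 to 21.2 RPKM (median 14.4) in DCKO, a log2 fold change of 1.57 (SE 0.44). Neither gene's groups overlapped, and neither passed the test over all genes (adjusted p = 0.827 and 0.96 by limma). Scml2 was the other gene, with Dazl, that was also separated upward in XY cells, at a log2 fold change of 2.72 (SE 0.62); Rbm46 stood there at -0.26 (SE 0.58). Stk31, a testis kinase-like protein with a Tudor domain, had 22.3, 20.3, 20.004 and 19.4 RPKM in controls and 26.2 to 44.9 RPKM (median 32.5) in DCKO. Smc1b, the meiotic cohesin subunit, had 36.2, 30.4, 27.8 and 16.7 RPKM in controls and 39.2 to 56.8 RPKM (median 44.7) in DCKO. Their log2 fold changes, 0.67 (SE 0.26) and 0.78 (SE 0.27), both had an adjusted p of 0.96 in limma.

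The list of methylation-repressed germline genes, which promoter methylation silences in other cells, lay mostly above 0. It held 31 tested genes, of which 25 were higher in DCKO on average, and the median log2 fold change was 0.42, against 48.3% and -0.02 over all genes. At an unadjusted p under 0.05 in limma, 4 were higher and 2 lower, where 1.61% and 3.21% of all genes tested were. Separated upward were 3 (Dazl, Stk31 and Smc1b), where 0.406% of all genes tested were. Sohlh2, a transcription factor of early oocytes and spermatogonia, had 34.5, 30.5, 20.9 and 33.8 RPKM in controls and 32.7 to 90.8 RPKM (median 73.0) in DCKO. Its groups met at DCKO 4, the lowest of the 6, and its log2 fold change was 1.08 (SE 0.30). Members also lay the other way: D1Pas1, an autosomal testis helicase gene, had 1.81 to 7.76 RPKM in controls and 0 to 2.26 RPKM in DCKO. Ldhc, the lactate dehydrogenase of the testis, stood at -1.84, the lowest of the list. By library, the list's mean log2(RPKM + 1) ran from 3.70 to 4.68 in DCKO and from 3.83 to 4.16 in controls. The groups overlapped, and the lowest DCKO library lay below every control. Without DCKO 2, 4 and 6, the median of the list was 0.75, and with a term for the markers of other cell types it was 0.61. In XY libraries 26 of the 31 were above 0 with a median of 0.66, and at E10.5 23 were, with a median of 0.70. The list was drawn up with earlier results of these data known, so its direction is a description.

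Genes of the piRNA pathway, which silences retrotransposons through small RNAs, overlap that list. By library, their mean log2(RPKM + 1) ran from 3.53 to 4.50 in DCKO and from 3.54 to 3.95 in controls. Of 16 tested, 13 lay above 0 (median log2 fold change 0.29), 0 had an unadjusted p under 0.05 in limma in either direction, and 13 of 16 were above 0 in XY and at E10.5 too. Pld6, the mitochondrial nuclease of the pathway, had 0.473, 1.00, 5.58 and 0.48 RPKM in controls and 0.176 to 11.2 RPKM in DCKO (log2 fold change 1.41, SE 0.70). Asz1 and Gpat2, mitochondrial partners of the PIWI proteins, stood at 0.55 (SE 0.32) and 0.82 (SE 0.47). The 22 retroelement silencing genes that work without piRNAs had a median of -0.04, with 8 above 0. The PRC1.6 complex, a Polycomb complex that represses germline genes through MGA and E2F6, had 7 of 14 above 0 and a median of -0.07.

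Meiotic genes lay in both directions. Of 12 synaptonemal complex and chromosome axis genes, 9 were above 0 (median 0.52). At an unadjusted p under 0.05 in limma, 3 were higher, where 1.61% of all genes tested were. Tex12, a central element protein of the synaptonemal complex, had 7.87, 4.55, 1.84 and 4.87 RPKM in controls and 6.77 to 21.1 RPKM (median 12.6) in DCKO, a log2 fold change of 1.31 (SE 0.44). In XY cells Tex12 stood at 3.30 (SE 0.90), with groups that overlapped too. Of 17 recombination genes, 12 were above 0 (median 0.32; 0.09 with a replicate block and 0.07 with a title number block). Mei4 and Dmc1, which act in double-strand break formation and strand exchange, stood at 1.25 (SE 0.50) and 1.31 (SE 0.53), with controls at 0.66 to 1.43 RPKM and 0.441 to 3.67 RPKM. Spo11, which makes the breaks, went the other way: controls had 3.55, 0.928, 3.18 and 1.68 RPKM and DCKO libraries 0 to 0.563 RPKM (log2 fold change -1.39, SE 0.46). At E10.5 Spo11 had the opposite sign, with a log2 difference of 1.96. Stra8, the retinoic acid target that marks entry into meiosis, was at or under 0.198 RPKM in each control and in DCKO reached 17.4 RPKM in library 3 and 1.41 RPKM in library 5, with the other 4 at or under 0.179 RPKM. Of 11 tested oocyte differentiation genes 10 were above 0 with a median of 0.19, while 16 of the 27 listed were under the expression filter.

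Sdc4, a heparan sulfate proteoglycan of the cell surface, had 18.7, 16.9, 25.4 and 21.6 RPKM in controls and 42.8 to 70.7 RPKM (median 56.5) in DCKO. Its log2 fold change of 1.43 (SE 0.25) had an adjusted p of 0.139 in limma, and 0.0227 with library weights. In XY libraries its estimate was -0.75 (SE 0.90). Tex30 had 27.5, 31.6, 20.5 and 27.5 RPKM in controls and 53.2 to 71.1 RPKM (median 55.7) in DCKO, a log2 fold change of 1.14 (SE 0.23; adjusted p = 0.441 by limma). It was 1 of 11 of the 48 genes that were also separated upward at E10.5, where controls had 32.0 and 29.3 RPKM and DCKO libraries 79.0 and 44.6 RPKM. Serpine2, a secreted protease inhibitor that somatic cells of the gonad also express, had 0.934 to 2.49 RPKM in controls and 4.54 to 18.98 RPKM in DCKO. Its highest values were in DCKO 6 and DCKO 4, libraries high in markers of other cell types, and the part of those cells in its difference was not tested. Cul4a, a ubiquitin ligase scaffold, had 49.6 to 64.4 RPKM in controls and 71.5 to 106 RPKM in DCKO, a log2 fold change of 0.68 with an SE of 0.21. Ccdc90b, Akirin1 and Iqsec1 stood at 1.04 (SE 0.28), 1.22 (SE 0.33) and 1.34 (SE 0.41).

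**Figure D3:**
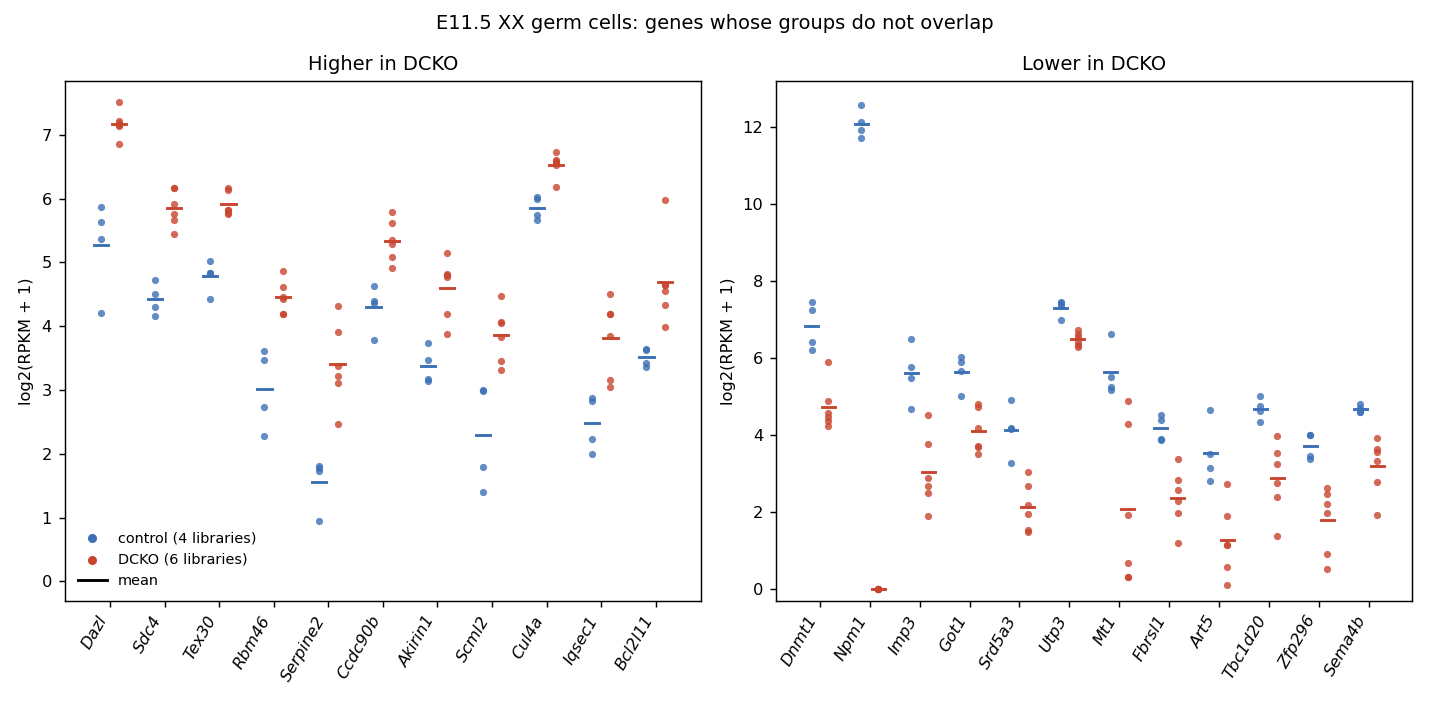
Log2(RPKM + 1) of the named separated genes in each E11.5 XX library (4 controls in blue, 6 DCKO in red, bars at the group means). No gene's groups overlap; Npm1 lies at 0 in all 6 DCKO libraries, and Bcl2l11 has 1 high DCKO value of 62.4 RPKM in DCKO 4.

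Cell death and DNA damage genes were mixed. Bcl2l11, which encodes the pro-apoptotic protein BIM, had 11.48, 9.76, 9.30 and 11.3 RPKM in controls and 14.8 to 62.4 RPKM (median 23.2) in DCKO, a log2 fold change of 1.18 (SE 0.37). Apaf1, the scaffold of the apoptosome, had 3.06 to 6.77 RPKM in controls and 6.80 to 18.2 RPKM in DCKO (log2 fold change 0.95, SE 0.39). Bid, another pro-apoptotic member of the BCL2 family, stood at -0.89 (SE 0.42) and Gadd45a, a p53 target, at -1.26 (SE 0.55). Of the 26 tested p53 targets and apoptosis genes, 16 were above 0 (median 0.27). At an unadjusted p under 0.05 in limma, 2 were higher and 2 lower, against 1.61% and 3.21% of all genes tested. Chek1, the replication checkpoint kinase, had 14.2, 12.7, 13.8 and 12.3 RPKM in controls and 18.96 to 30.8 RPKM (median 23.8) in DCKO, a log2 fold change of 0.79 (SE 0.27). Palb2, which brings BRCA2 to DNA breaks, had 8.25 to 9.38 RPKM in controls and 10.2 to 25.6 RPKM in DCKO. Both were separated upward, as were 0.406% of all genes tested. However, 19 of the 28 DNA repair genes were at or below 0, and the list's median was -0.13. Fancd2, of the Fanconi pathway, stood at -0.73 (SE 0.34). In XY cells Chek1 and Palb2 stood at 0.14 and -0.51, with differences of -0.32 and 0.47 at E10.5.

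Among the partners of DNMT1, Uhrf1 had 2.64, 6.23, 3.79 and 1.91 RPKM in controls and 5.26 to 27.0 RPKM (median 14.5) in DCKO. Only DCKO 1 lay within the controls' range, and the log2 fold change of 1.66 (SE 0.50) had an unadjusted p of 0.00481 and an adjusted p of 0.96 in limma. Its estimate was 1.22 in XY cells, and both E10.5 DCKO libraries lay above both controls. Hells, a chromatin remodeler needed for DNA methylation, had 64.4, 64.0, 48.4 and 40.2 RPKM in controls and 56.4 to 96.0 RPKM in DCKO (log2 fold change 0.57, SE 0.24). Of all 20 tested genes of DNA methylation and oxidation, 11 were above 0, with a median of 0.17.

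Imp3, a component of the small subunit processome of the nucleolus, had 89.4, 53.8, 24.6 and 44.0 RPKM in controls and 2.75 to 22.1 RPKM (median 5.91) in DCKO, a log2 fold change of -2.57 (SE 0.50; adjusted p = 0.336 by limma). It stood at -3.78 (SE 0.90) in XY cells, where 1 DCKO library lay among the controls. At E10.5 it had 90.8 and 58.8 RPKM in controls and 4.48 and 32.2 RPKM in DCKO. Utp3, another processome protein, had 177, 164, 126 and 171 RPKM in controls and 77.6 to 105 RPKM (median 88.8) in DCKO, a log2 fold change of -0.82 (SE 0.20), but -0.14 (SE 0.36) in XY cells. At E10.5 Utp3 lay the other way in XX cells, with 134 and 130 RPKM in controls and 183 and 145 RPKM in DCKO. Mt1, a metallothionein that binds zinc and copper, had 98.9, 44.5, 34.9 and 37.2 RPKM in controls and 0.241 to 28.9 RPKM (median 1.69) in DCKO. Its log2 fold change was -3.57 (SE 0.86), and that in XY cells, where the groups overlapped, -3.28 (SE 1.04). At E10.5 its XX groups overlapped, at 11.4 and 67.8 RPKM in controls against 31.4 and 56.6 RPKM in DCKO.

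Got1, the cytosolic aspartate aminotransferase, had 50.02, 64.7, 31.2 and 58.4 RPKM in controls and 10.4 to 26.9 RPKM (median 14.7) in DCKO, a log2 fold change of -1.54 (SE 0.35) against -0.09 (SE 0.43) in XY cells. Srd5a3, an enzyme of dolichol synthesis for protein glycosylation, had 8.66 to 29.0 RPKM in controls and 1.81 to 7.25 RPKM in DCKO. Zfp296, a zinc finger protein of pluripotent and germ cells, had 9.51, 15.2, 15.1 and 10.1 RPKM in controls and 0.435 to 5.22 RPKM (median 3.30) in DCKO, a log2 fold change of -1.93 (SE 0.51). It was lower at E10.5 too, without overlap of the 2 and 2 libraries (a log2 difference of -1.12). Fbrsl1, Art5, Tbc1d20 and Sema4b stood at -1.80 (SE 0.45), -2.27 (SE 0.58), -1.80 (SE 0.47) and -1.49 (SE 0.40). None of these genes passed the test (adjusted p of 0.723 to 0.934 by limma), so the separation of the groups is given as a description.

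All 18 tested glycolysis genes lay below 0, with a median log2 fold change of -0.41, where 48.3% of all genes lay above 0. Under the other settings 0 to 3 of the 18 lay above 0. Only 2, Pfkm and Pfkp, had an unadjusted p under 0.05 in limma, where 3.21% of all genes tested were lower at that level. Separated downward was 1, Slc2a1, where 0.862% of all genes tested were. Pfkm, the muscle form of phosphofructokinase, had 11.7, 9.14, 6.96 and 12.9 RPKM in controls and 1.33 to 10.1 RPKM (median 3.53) in DCKO, a log2 fold change of -1.27 (SE 0.50). Pfkp, its platelet form, had 40.0, 31.2, 42.1 and 42.8 RPKM in controls and 9.46 to 34.5 RPKM (median 24.9) in DCKO, and only DCKO 1 and DCKO 3 lay in the controls' range. Slc2a1, the glucose transporter GLUT1, had 49.3, 65.6, 52.9 and 52.6 RPKM in controls and 32.4 to 48.4 RPKM (median 41.2) in DCKO, a log2 fold change of -0.42 (SE 0.22). The list's mean log2 level ran from 4.83 to 5.4 in DCKO and from 5.36 to 5.98 in controls. In XY cells 16 of the 18 lay below 0 (median -0.48), and at E10.5 13 did (median -0.29). Respiratory chain subunits did not share the direction, with 16 of 29 above 0 and a median of 0.08.

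Pluripotency genes also lay mostly below 0, but less so without 1 library. Of 26 tested, 5 were above 0 (median -0.40). Tdh, a threonine dehydrogenase typical of mouse pluripotent cells, had 95.7, 88.4, 97.5 and 105 RPKM in controls and 14.0 to 81.9 RPKM (median 75.8) in DCKO, the one separated member. The lowest value, in DCKO 4, was far from the next, 64.3 RPKM. Of all genes tested, 0.862% were separated downward. Esrrb, Klf5 and Tcl1, transcriptional and signalling regulators of the naive pluripotent state, stood at -1.14 (SE 0.58), -0.76 (SE 0.38) and -1.002 (SE 0.53), and each had its lowest value in DCKO 4. Without DCKO 4 the list had 10 of 26 above 0 and a median of -0.18. In XY cells 16 of the 26 were above 0, whereas at E10.5 2 were. Germ cell identity genes had 5 of 15 above 0 (median -0.21), but 9 and a median of 0.07 without DCKO 4. Rhox6, an X-linked homeobox gene of PGCs, had 523, 543, 504 and 408 RPKM in controls and 129 to 457 RPKM (median 353) in DCKO. In bulk libraries fewer cells of a type and less RNA per cell cannot be told apart.

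**Figure D4:**
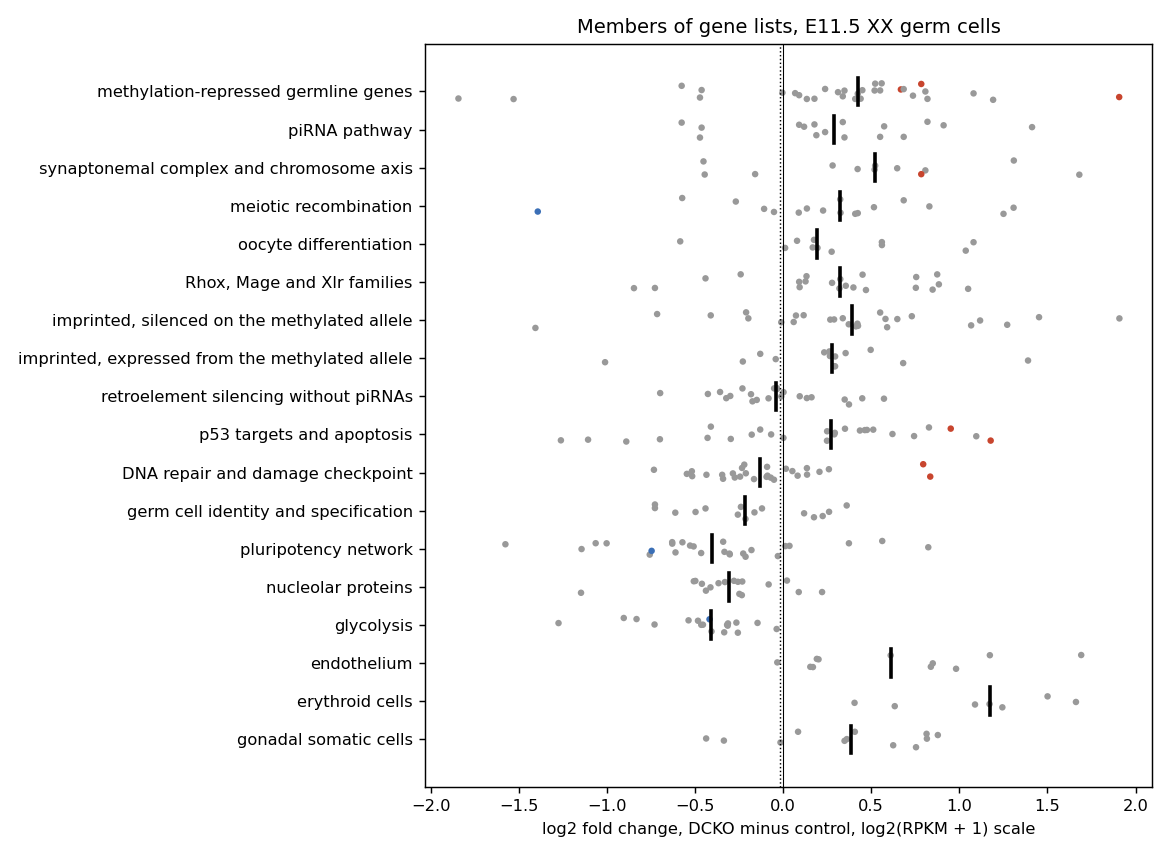
Log2 fold change (DCKO minus control) of each tested member of 18 gene lists, with separated genes in red (higher) and blue (lower), list medians as black bars and the median of all genes, -0.02, as a dotted line. All 18 glycolysis genes lie below 0, and 25 of 31 methylation-repressed germline genes lie above it; Npm1 is left out.

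X-linked genes lay slightly above autosomal ones in the XX comparison. Of 443 tested X-linked genes, 264 (59.6%) lay above 0, and their median log2 fold change was 0.12, against 47.8% and -0.03 for 11366 autosomal genes. The ratio of median X-linked to median autosomal RPKM was 0.816, 0.595, 0.682 and 0.706 in the controls. In DCKO it was 0.838, 0.882, 0.895, 0.94, 0.825 and 0.719. The groups overlap through control 1 and DCKO 6 alone, and the other 5 DCKO libraries were above all 4 controls. In XY libraries, which carry a single X, the ratio was 0.483 to 0.708 in controls and 0.51 to 0.629 in DCKO, and the median X-linked log2 fold change was -0.14 beside -0.11 for autosomes. At E10.5 the XX ratio was 0.652 and 0.71 in controls and 0.541 and 0.768 in DCKO. The X-linked median stayed between 0.09 and 0.19 over the settings tried, the omission of each library included. Xist, the RNA that coats the silent X, had 15.9, 3.23, 29.6 and 2.64 RPKM in controls and up to 125 RPKM (median 16.2) in DCKO, with overlapping groups and the 2 highest values in DCKO 4 and DCKO 6. The separated X-linked genes were 4 higher and 4 lower, where 0.406% and 0.862% of all genes tested were. At an unadjusted p under 0.05 in limma, 5 of the 443 were higher and 13 lower. Over all genes tested, 1.61% were higher and 3.21% lower at that level. In the Rhox, Mage and Xlr families, X-linked and germline-biased, 17 of 21 tested genes were above 0 (median 0.32). Near-identical copies within these families can share reads, so single members such as Xlr5b (log2 fold change 1.05, SE 0.55) are uncertain.

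In both classes of imprinted genes, more fold changes lay above 0 than below. Of 26 tested genes that are silenced on their methylated allele, 20 were above 0 (median 0.39), but 14 were with a term for the markers of other cell types (median 0.03), as were 14 without DCKO 2, 4 and 6 (median 0.04). Nnat, a maternally imprinted proteolipid gene, had 11.1, 4.65, 14.3 and 0.741 RPKM in controls. In DCKO it reached 126 and 122 RPKM in libraries 4 and 6, against 5.13 to 18.7 RPKM in the other 4. Usp29, from the Peg3 domain, had 0.122 to 0.666 RPKM in controls and 0.235 to 4.83 RPKM in DCKO. Zim2 of the same domain, which the list places in this class, had 0 to 8.89 RPKM in controls and 0 to 3.33 RPKM in DCKO. Which allele expresses Zim2 was not checked here. Of 14 genes expressed from the methylated allele, 10 were above 0 as well (median 0.28). In XY cells the first class had 9 of 26 above 0.

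Markers of other cell types lay higher in DCKO for most lists, with the values carried by few libraries. All 7 tested erythroid genes were above 0 (median 1.17), and without DCKO 2, 4 and 6, 2 were (median -0.00139). Of the 12 listed, 5 were under the expression filter. Hba-a2, an alpha globin, was at or under 0.0202 RPKM in the controls and reached 54.4 RPKM in DCKO. The filter takes the mean over all 10 libraries, so such a gene passed it only through DCKO. The counts above 0 in these marker lists are therefore partly set by the filter. Controls were not free of erythroid RNA: summed over the 12 erythroid markers in the table, the highest control had 353 RPKM and the lowest 0.665 RPKM. The lowest DCKO sum, 0.041 RPKM, was below every control, while the 2 highest were 1669 RPKM (DCKO 4) and 1447 RPKM. For endothelium 10 of 11 were above 0 (median 0.61), led by Tie1, a vascular receptor, at 0 to 0.613 RPKM in controls and 0 to 20.3 RPKM in DCKO. For gonadal somatic cells 9 of 12 were above 0 (median 0.38), and 6 without DCKO 4 (median -0.03). Of the epithelial keratins, Krt8 stood at 1.48 (SE 0.73) and Krt7 at -1.31 (SE 0.52). In a fit with a term for these markers, the median was 0.61 for methylation-repressed germline genes, 0.46 for piRNA genes and 0.15 for germ cell identity genes.

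Whether a difference was particular to XX cells was tested as the interaction of sex and genotype over the 18 E11.5 libraries. At adjusted p under 0.05, limma found 0 genes, with 429 at an unadjusted p under 0.05, so no gene was shown to differ between the sexes in its genotype effect. Of the genes named above, the smallest unadjusted interaction p were those of Fbrsl1 (0.00215), Iqsec1 (0.00389) and Art5 (0.00439). Among the 48 separated higher genes, 27 (56.3%) also lay above 0 in XY, where 43.1% of all tested genes did, and 2 (4.17%) were separated upward there, against 0.904% of all. Of the 102 separated lower genes, 67 (65.7%) were also below 0 in XY, against 56.9% of all, and 4 (3.92%) were separated, against 1.61%: Dnmt1, Npm1, Peak1 and Maml1. At E10.5, with 2 against 2 libraries, 32 of the 48 (66.7%, against 44.4% of all) and 71 of the 102 (69.6%, against 54.3%) kept their sign. Separated in the same direction there were 11 of the 48, where 15.1% of all tested genes were, and 32 of the 102, where 19.7% were.

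**Figure D5:**
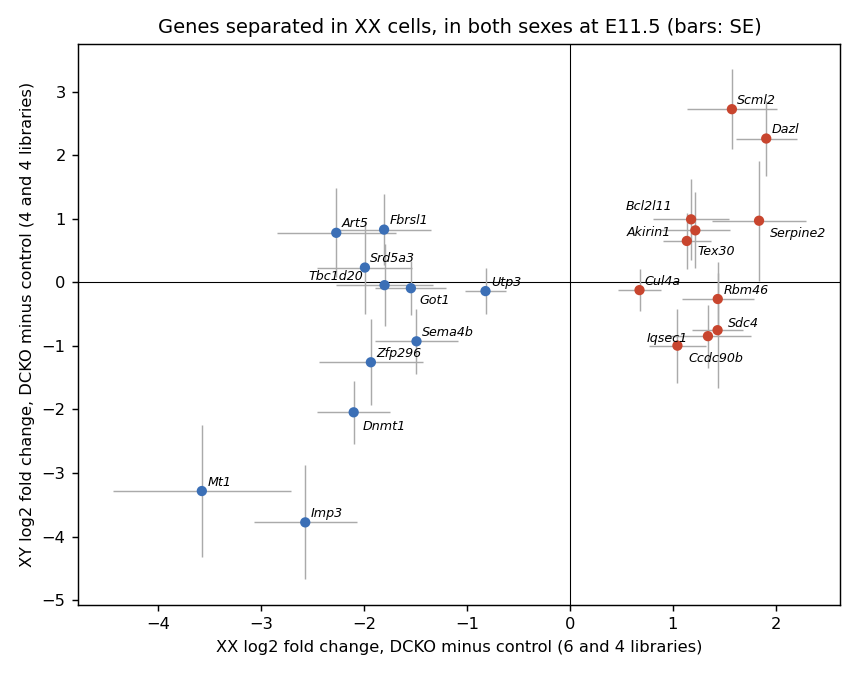
Log2 fold changes (DCKO minus control) of the named separated genes other than Npm1 in XX (horizontal) and XY cells (vertical) at E11.5, with bars of 1 SE; the 2 comparisons use different libraries. Dazl, Scml2, Dnmt1, Imp3 and Mt1 lie far from 0 in the same direction on both axes, and Sdc4, Iqsec1, Ccdc90b, Fbrsl1 and Art5 are among those with opposite signs.

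Short RNA genes, tested apart, had 0 calls at adjusted p under 0.05 in limma, with 2 higher and 10 lower at an unadjusted p under 0.05. Of the 388, 370 were listed at 0 in at least 1 of the 10 libraries. The smallest p belonged to Mir5122, listed at 0 in all 6 DCKO libraries and at 302, 39.1, 414 and 95.7 RPKM in controls (adjusted p = 0.376 by limma), and to Rnu73b, also listed at 0 in all 6 and in control 3. The libraries were made from amplified polyadenylated RNA, so these values are not levels of mature small RNAs.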

How the data were processed

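RNA of sorted PGCs was sequenced in 37 samples, of which the 10 E11.5 XX libraries were compared here. The E11.5 XY libraries and the E10.5 XX libraries were used beside them, and E13.5 samples were not analysed here. The authors deposited 1 RPKM table per stage. The submitters' processing notes name TopHat2 (2.1.0), Cuffdiff, Cufflinks (2.2.1) and the genome build mm9. For gene models and filters, no source used here gives any detail. Whole reads could not be recovered from the values, and library depth is therefore unknown. The sum of deposited RPKM ran from 546076 to 786696 per library.

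Genes averaging 1 RPKM or more in the 10 libraries were tested with limma version 3.58.1 in R version 4.3.3, on log2(RPKM + 1) with an intensity trend, two-sided, with Benjamini-Hochberg adjustment over all 11837 genes and a threshold of 0.05. A fold change on this scale understates the change of low genes. The script was tested on simulated data. The interaction was fitted over 18 libraries with 4 group means. Each table was tested alone. Promoters were matched by symbol or older symbol to RefSeq on GRCm38.p6, and only sequences and gene order were taken from that build. The named genes were Dnmt1, genes past the threshold, then the separated genes with the smallest p up to 12 in each direction, up to 4 members of each list with the smallest p, genes listed at 0 in a whole group with a mean of at least 20 RPKM in the other, and the 2 short RNA genes with the smallest p. A result that this rule names is not reported here. Stk31, Ldhc, Tdh, Peak1, Snupn, Ptpn9 and Maml1 were chosen after their values were seen. By the same rule fell DQ267102, at 0 in all but control 3 (708 RPKM), and Gm24572, at 0 in all but DCKO 6 (689 RPKM). The members and lists were chosen with earlier results of these data known.

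Replicate numbers did not pair the samples: the correlations of same-numbered libraries' deviations from their group means were -0.00356, 0.00703, -0.149 and -0.138. Those of libraries that share a title number, the number before the dash in the title, were -0.00356 to 0.253. The highest were 0.253 (DCKO 4 with control 3, title number 90) and 0.116 (DCKO 3 with control 2, title number 87). Pairs that share no title number reached 0.0948. DCKO 4 and control 3 also had the highest mean of other cell type markers in their groups (3.67 and 2.27). The main fit has no term for title number, and a block for it is among the alternatives. Alternatives were other pseudocounts, filters, scalings, variance models, library weights, both blocks, a marker term and the omission of each library. Leaving out DCKO 2, 4 and 6 together was added after seeing the data.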

Additional observations from a re-analysis of the deposited data

Results flagged for a closer look

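In groups of 4 or 6 libraries, a value was singled out where its gap to the nearest other value, divided by the group's range on the log2(RPKM + 1) scale, passed Dixon's 95% critical value. Of 161 groups of values checked, 10 values of 9 genes did so, and chance alone singles out about 1 group in 20.

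In DCKO 4, Cul4a (6.18), Tdh (3.90) and Fbl (7.38) were low and Bcl2l11 (5.99) was high against the other 5 DCKO libraries. This library had the highest level of markers of other cell types, and their part in these values was not tested. Zim2 was high in DCKO 5 (2.12) and Stra8 in DCKO 3 (4.20). Among controls, Serpine2 was low in control 2 (0.95), Aurkb, a mitotic kinase, was low in control 3 (5.46), and Sgce (1.48) and Stra8 (0.26) were high in control 3.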

How the results depend on the processing

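For 76 named genes other than Dnmt1, 1952 values under other settings kept their direction and their side of the threshold. Those that newly passed it were Dazl and Sdc4 with library weights and Peak1 with no filter. The 2 that changed direction were Hba-a2 (-0.00139) and Hbb-b2 (0), both without DCKO 2, 4 and 6. By construction, a separated gene keeps its direction when libraries are left out. Most named genes were also far from the threshold, so these counts say little about stability. The number of calls was 4 with no filter (801 at an unadjusted p under 0.05) and 4 with library weights (938; Dazl, Dnmt1, Npm1 and Sdc4), 2 when short RNA genes were tested with the others, 0 when genes listed at 0 in a whole group were left out (567 at an unadjusted p under 0.05), and 1 to 2 when each library was left out. With library weights the log2 fold change of Dnmt1 was -2.41 (adjusted p = 0.00859). Over omissions it ran from -2.33 to -1.89, and it passed the threshold only without DCKO 2 (-2.33, adjusted p = 0.02). At an unadjusted p under 0.05, the XX contrast fitted in all 18 libraries gave 266 genes. More genes are separated when libraries are left out, by construction: 235 to 318 without each library, and 870 without DCKO 2, 4 and 6, against 150 in all 10. Of list medians, 48 moved by more than the spread and 862 did not. A replicate block gave 1 call (Npm1), 568 genes at an unadjusted p under 0.05 and -1.91 for Dnmt1, and a title number block 1 (Npm1), 654 and -2.13. The blocks changed no call. Depth per library is unknown, and with 6 and 4 libraries no single permutation p can go below 0.00476.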

Other observations

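Separated lower genes lay close together at 1 place on chromosome 9. The tested genes were put in the order of the RefSeq annotation, and each window of 15 consecutive genes on a chromosome was counted (10975 windows of 11255 ordered genes). The largest number of separated lower genes in a window was 4, found in 10 windows that all held Peak1, Imp3, Snupn and Ptpn9. At least 3 were found in 19 windows. For separated higher genes the largest number was 2. Chromosome 9, which also carries Dnmt1, had 12 separated lower genes among 650 ordered genes (1.85%, against 0.862% of all genes tested).

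Peak1, a pseudokinase of the cytoskeleton, was listed at 0 in all 6 DCKO libraries and had 2.18, 2.84, 5.37 and 2.97 RPKM in controls. It was listed at 0 in every XY DCKO library as well. As for Npm1, an exact 0 can be a failed estimate, so its place among the 4 genes is uncertain. Snupn, the import adaptor of spliceosomal snRNPs, had 16.9, 19.2, 13.8 and 9.87 RPKM in controls and 0.0531 to 9.81 RPKM (median 3.97) in DCKO, a log2 fold change of -2.15 (limma unadjusted p = 0.00723). Ptpn9, a tyrosine phosphatase of secretory vesicles, had 16.05, 19.7, 13.7 and 16.7 RPKM in controls and 0.187 to 10.8 RPKM (median 5.98) in DCKO, a log2 fold change of -1.89 (limma unadjusted p = 0.00684). In XY cells the log2 fold changes were -3.78 for Imp3, -1.25 for Snupn and -1.30 for Ptpn9. At E10.5 the differences were -2.46, -1.55 and -0.76, while Peak1 was listed at 0 in both XX controls and at 0.131 and 3.71 RPKM in DCKO. This place was chosen after the values were seen, and no cause was tested.

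Maml1, a coactivator of Notch signalling, was the remaining gene separated downward in both sexes at E11.5. XX controls had 9.43, 13.2, 8.996 and 13.4 RPKM and DCKO libraries 2.55 to 8.24 RPKM, a log2 fold change of -1.02, and that in XY cells was -1.81. At E10.5 its XX groups overlapped, with a difference of -0.12.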
